A study of Mus musculus with 9 samples.

Results

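The 9 genes described here are grouped under calcium release from the sarcoplasmic reticulum, the internal calcium store of a muscle cell. They are Ryr2, Fkbp1b, Casq2, Casq1, Trdn, Asph, Jph2, Jph1 and Srl, chosen by name, and all 9 were found among the 55401 genes of a count table from mouse heart. The group is broader than the release channel complex itself, and Srl in it encodes a calcium-binding protein of the store. Poly(A) RNA from hearts of C57BL/6, a common inbred mouse strain, gave 9 libraries with total counts between 56827533 and 73194268. The treatment labels give 3 groups of 3 libraries. Kmo_AngII hearts came from mice given Ang II (angiotensin II, a vessel-constricting hormone) under a condition labelled Kmo+Ang II, and the labels do not explain Kmo. AngII hearts came from mice given Ang II, and Ctrl hearts from mice given PBS, a salt buffer. The letters that open the sample titles give a second grouping that the labels do not explain either. All 3 Kmo_AngII libraries are titled KKA, while AngII and Ctrl each mix both other letter groups. The WA libraries are AngII replicate 3 and Ctrl replicates 2 and 3, and the WC libraries are AngII replicates 1 and 2 and Ctrl replicate 1. No label gives age, sex, dose, duration or cell of origin, and none says whether different animals gave the libraries. Each p-value therefore reflects the spread among the samples given, and that spread may be technical. Whether any library carries an exchanged label or title could not be checked, so the AngII and Ctrl labels are in doubt here, and a difference between labels is one between the libraries so labelled.

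In each heartbeat, calcium entering through the surface membrane opens ryanodine receptors, and the calcium they release from the store drives contraction. Ryr2 encodes the cardiac receptor itself. FKBP12.6, from Fkbp1b, binds the channel on its cytosolic side. Inside the store, calsequestrin (Casq2 in the heart, Casq1 mainly in skeletal muscle) binds calcium, and triadin (Trdn) and junctin (one product of Asph) anchor it to the channel. Junctophilins (Jph2 in the heart, Jph1 mainly in skeletal muscle) hold the store membrane next to the surface membrane, and sarcalumenin (Srl) is a second calcium-binding protein of the store. Mutations in RYR2, CASQ2 and TRDN are known causes of stress-triggered ventricular arrhythmia in people.

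The tissue label held for muscle: the 15 working heart muscle markers summed to between 21705.5 and 61354 CPM (counts scaled to a common library size with TMM factors), and none of them was at 0 in any library. The protocol text speaks of an adipose type, but the 6 adipocyte markers summed to at most 13.1 CPM, in Kmo_AngII replicate 3. The skeletal muscle myosins Myh1, Myh2 and Myh4 never exceeded 0.178 CPM, and 12 of 15 skeletal muscle markers averaged below 1 CPM. Not all were as low: Eno3 was 162 to 1090 CPM, and Mybpc2 reached 20.4 CPM in Ctrl replicate 2. Without Eno3 the list summed to 11.3 to 27.6 CPM. A pair of libraries stood apart by part of a list of 9 atrial muscle genes. Myl7, the atrial myosin light chain, was 469 CPM in Kmo_AngII replicate 3 and 47.7 CPM in Ctrl replicate 2. Elsewhere it was at most 0.854 CPM. Bmp10, from the same list, was 41.3 CPM in Kmo_AngII replicate 3 but 0 in Ctrl replicate 2. The list summed to 1234 CPM in Ctrl replicate 2, below the 1750 CPM of Ctrl replicate 3, whose Myl7 was 0.399 CPM. The pair is called the libraries with atrial genes below. Kmo_AngII replicate 3 also had the lowest heart muscle sum and the highest fibroblast marker sum (2097 CPM, against 505 to 904 CPM in the other libraries). Mitochondrially encoded genes took between 30.3% and 55.5% of the counts, and the 9 calcium release genes together at most 0.250%.

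Ryr2 (ENSMUSG00000021313, chromosome 13) varied least of the 9 genes in log2 CPM. It had 531, 444 and 209.8 CPM in Kmo_AngII, 469, 487 and 354 CPM in AngII and 328, 439.6 and 485 CPM in Ctrl, for replicates 1 to 3 in each. The ranges of all 3 treatment groups overlapped, as did those of the WA and WC titles, and the one low library was Kmo_AngII replicate 3. The standard deviation of its log2 CPM over the 9 libraries was 0.42, at percentile 41.6 of the 19091 genes tested, where the median gene had 0.48. Fkbp1b (ENSMUSG00000020635, chromosome 12) was barely detected. Its CPM was 0.239, 0.869 and 1.76 in Kmo_AngII, 0.342, 0.446 and 0.507 in AngII and 0.656, 0.429 and 0.712 in Ctrl, from 18 to 89 raw counts a library. Kmo_AngII replicate 3 had the lowest Ryr2 and the highest Fkbp1b of all 9 libraries, and the Fkbp1b ranges of the treatment groups overlapped. The epicardial and mesothelial marker sum in that library was 92.1 CPM, against 4.07 to 18.7 CPM elsewhere. Its fibroblast (2097 CPM) and atrial (2755 CPM) marker sums were the highest of the series too. Wt1, the highest gene of the epicardial list on average, was at most 11.2 CPM in KKA and 12.0 to 14.4 CPM in WC. The part of any of these cells in the Fkbp1b value was not tested.

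**Figure D1:**
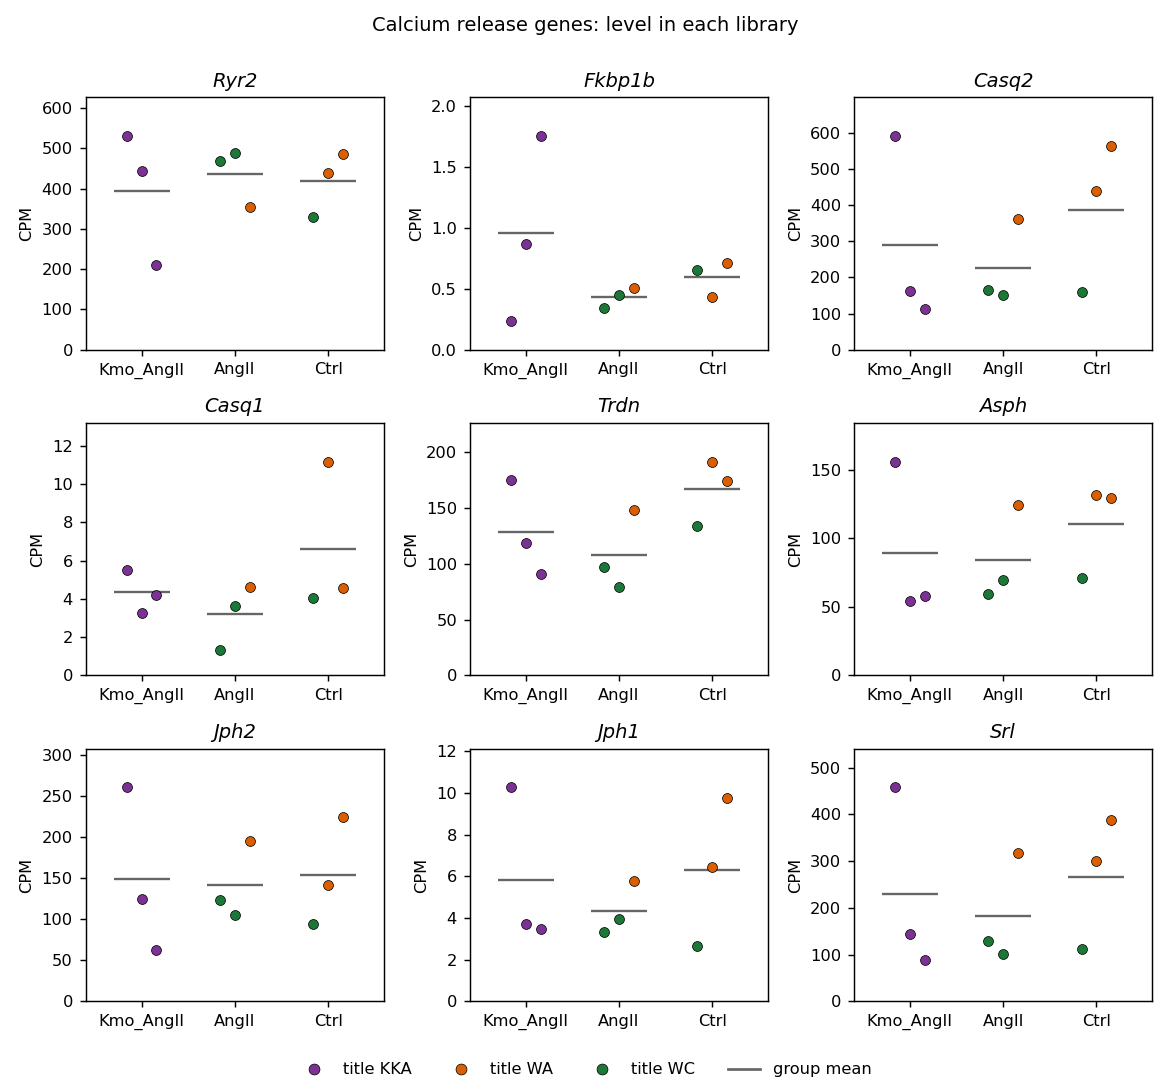
Level of each calcium release gene (CPM, TMM library sizes, linear axes from 0) in the 9 libraries, by treatment label from left to right Kmo_AngII, AngII and Ctrl. Each point is a library coloured by the letters of its title (KKA, WA or WC), replicates 1 to 3 run from left to right, and the line is the group mean; the WA points lie above the WC points for Casq2, Casq1, Trdn, Asph, Jph2, Jph1 and Srl, but not for Ryr2 or Fkbp1b.

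Casq2 (ENSMUSG00000027861, chromosome 3) varied most on the log2 scale, with a standard deviation of 0.93 (percentile 82.6 of the genes tested). Its CPM was 591, 163 and 112 in Kmo_AngII, 166, 150.0 and 361 in AngII and 159, 438 and 563 in Ctrl. A library therefore held either 361 to 591 CPM or 112 to 166 CPM, with nothing between. The high ones were the 3 WA libraries and Kmo_AngII replicate 1, and the low ones the 3 WC libraries and Kmo_AngII replicates 2 and 3, so each treatment group contained both levels. Casq1 (ENSMUSG00000007122, chromosome 1), the skeletal muscle calsequestrin, was low throughout. It had 5.53, 3.28 and 4.18 CPM in Kmo_AngII, 1.33, 3.63 and 4.63 CPM in AngII and 4.02, 11.2 and 4.55 CPM in Ctrl. The highest value belonged to Ctrl replicate 2, one of the libraries with atrial genes.

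The promoters of Ryr2 and Casq2 are shown because these genes varied least and most in log2 CPM. Relative to heart muscle markers in the same library, the order was another, with a standard deviation of 0.47 for Ryr2 and 0.37 for Casq2, from 0.20 for Jph2 to 1.32 for Fkbp1b. Each is the 250 bases before the RefSeq start of the gene (build GRCm38.p6, whereas the submitters' processing notes name mm8), at chr13:12106946-12107195 on the minus strand for Ryr2 and chr3:102086165-102086414 on the plus strand for Casq2. RefSeq start sequences were matched for 5 of the 9 genes (Ryr2, Casq1, Casq2, Jph2 and Fkbp1b). Capitals mark a match to the MEF2 motif, the site of a muscle transcription factor family.
Ryr2: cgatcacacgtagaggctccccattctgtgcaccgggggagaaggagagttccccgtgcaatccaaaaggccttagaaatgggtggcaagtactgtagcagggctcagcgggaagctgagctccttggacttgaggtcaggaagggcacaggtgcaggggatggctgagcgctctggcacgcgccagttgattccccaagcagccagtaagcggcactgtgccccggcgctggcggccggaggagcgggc
Casq2: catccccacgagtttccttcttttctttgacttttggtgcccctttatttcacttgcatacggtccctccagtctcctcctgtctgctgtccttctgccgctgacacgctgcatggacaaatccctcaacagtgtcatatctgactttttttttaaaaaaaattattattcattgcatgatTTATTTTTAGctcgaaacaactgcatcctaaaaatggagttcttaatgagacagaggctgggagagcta
The MEF2 match in the Casq2 window lay at -69 to -60 from the start, and the Ryr2 window held none. On either strand, 2.92% of 32851 such windows of all genes held a MEF2 match, and among the 5 matched genes Casq2 alone did. Both windows held 2 E-box matches (CANNTG, in 66.2% of all windows) and no match to CArG (1.47%), GATAAG (6.55%), CATTCC (12.6%), TATAAA (12.4%) or GGGCGG (32.7%). GC content was 63.2% for Ryr2 and 41.6% for Casq2. A match is only a description of the letters, and no binding was measured.

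Trdn and Asph, whose products anchor calsequestrin, varied less than Casq2. Trdn (ENSMUSG00000019787, chromosome 10) had 175, 119 and 91.1 CPM in Kmo_AngII, 96.7, 79.3 and 148 CPM in AngII and 134, 191 and 174 CPM in Ctrl. Asph (ENSMUSG00000028207, chromosome 4) had 156, 54.5 and 58.2 CPM in Kmo_AngII, 59.3, 69.5 and 125 CPM in AngII and 71.2, 131 and 129 CPM in Ctrl. In both genes the 3 WA libraries lay above the 3 WC libraries. The Asph gene also encodes an aspartyl hydroxylase and junctate, and counts per gene do not separate these from junctin. Its exons share 14.3% of their length with Clvs1 on the opposite strand, a gene that itself had only 3 to 44 counts a library. The corresponding overlaps were 8.0% for Casq1 with Gm17224, which had 9 to 90 counts, and 0.68% for Jph1 with Gm28376, and the strand setting of the counting is not given in the sources used here.

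Of the junctophilins, Jph2 (ENSMUSG00000017817, chromosome 2) had 260.4, 125 and 61.9 CPM in Kmo_AngII, 124, 105 and 195 CPM in AngII and 93.9, 142 and 224 CPM in Ctrl. Jph1 (ENSMUSG00000042686, chromosome 1) had 10.3, 3.69 and 3.45 CPM in Kmo_AngII, 3.34, 3.95 and 5.77 CPM in AngII and 2.68, 6.44 and 9.74 CPM in Ctrl. Both were highest in Kmo_AngII replicate 1, and in both the WA libraries lay above the WC libraries. Srl (ENSMUSG00000022519, chromosome 16), the sarcalumenin gene, had 458, 145 and 87.7 CPM in Kmo_AngII, 129, 101 and 318 CPM in AngII and 113, 300.2 and 388 CPM in Ctrl. The Srl libraries divided exactly as those of Casq2. Over all 9 genes, 8 were higher in Kmo_AngII replicate 1 than in replicates 2 and 3, Fkbp1b being the exception, and 6 had their highest value of the series there. Kmo_AngII replicate 3 had the lowest value of the series for Ryr2, Casq2, Jph2 and Srl.

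Levels of different genes can be compared only per length, here as CPM per kb of annotated exon. The length was the union of exons over all annotated transcripts, of which Ryr2 had 14, Trdn 8 and Asph 20. Which of these the hearts used was not measured, so the order also depends on the annotation. On that scale Casq2 led with 109.8 ± 69.7 (SD over 9 libraries) and was above Srl (42.5 ± 26.4) in 9 of 9 libraries. Srl and Jph2 (34.8 ± 15.3) did not separate, since Srl was higher in 5 of 9. Ryr2 (14.5 ± 3.50) and Trdn (14.4 ± 4.36) did not separate either, with Ryr2 higher in 3 of 9. Asph (5.89 ± 2.46), Casq1 (2.41 ± 1.38) and Jph1 (1.10 ± 0.57) each lay below the gene before them in every library. Fkbp1b came last at 0.648 ± 0.445 and was below Jph1 in 6 of 9.

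The libraries were also compared by the letters of their titles, which cut across the AngII and Ctrl labels. In a fit of the 6 WA and WC libraries, 6 of the 9 genes were higher in WA than in WC: Srl, Casq2, Jph1, Asph, Jph2 and Trdn, by 2.96, 2.89, 2.21, 1.94, 1.75 and 1.67 times. With edgeR's quasi-likelihood test, 8.06% of the 18111 genes tested were called higher and 5.25% lower at an adjusted p below 0.05, 13.3% in all. Ryr2, Fkbp1b and Casq1 were not called, and none of the 9 was called lower. The median log2 difference of the 9 genes was 0.96, against -0.01 for all genes tested. In bulk tissue, fewer cells of a type and less RNA per cell cannot be told apart, so a difference in heart muscle content and a difference within muscle cells would look alike here.

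Srl and Casq2, the internal calcium-binding proteins, had the highest log2 differences. Srl averaged 335 ± 46.4 CPM in WA and 114 ± 13.8 CPM in WC (SD, n = 3 each), which differed by 1.57 ± 0.20 on the log2 scale (standard error, as after every log2 difference; edgeR adjusted p = 0.00242). Casq2 averaged 454 ± 102 CPM in WA and 158 ± 7.92 CPM in WC, a log2 difference of 1.53 ± 0.22 (edgeR adjusted p = 0.00376). Asph, next by adjusted p but not by size, averaged 128 ± 3.48 CPM in WA and 66.7 ± 6.44 CPM in WC, with a log2 difference of 0.96 ± 0.17 (edgeR adjusted p = 0.00633). These 3 genes were called in 13 of 14 alternative settings and lost their call only with scaling by library size alone.

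The junctophilins and triadin were called with less margin. The log2 differences were 1.15 ± 0.26 for Jph1 (edgeR adjusted p = 0.0166), 0.81 ± 0.21 for Jph2 (0.0294) and 0.74 ± 0.22 for Trdn (0.0475). Jph1 and Jph2 were called in 10 of 14 settings and Trdn in 7. WA and WC differ in their share of AngII libraries, and with the treatment label as a covariate Trdn was no longer called (0.62, edgeR adjusted p = 0.0587), while the other 5 genes were. Casq1 had a log2 difference of 1.20 ± 0.48 (edgeR adjusted p = 0.139), with no overlap between WA and WC but with WA values from 4.55 to 11.2 CPM. Casq1 was called in 1 of 14 settings, the DESeq2 test (DESeq2 adjusted p = 0.0306). Ryr2 averaged 426 ± 66.4 CPM in WA and 428 ± 87.0 CPM in WC, a log2 difference of 0.01 ± 0.23 whose 95% interval ran from -0.50 to 0.51 (edgeR adjusted p = 0.989). Fkbp1b had 0.21 ± 0.52 (edgeR adjusted p = 0.823). By CPM, 7 of the 9 genes had every WA library above every WC library, which 17.1% of the genes tested also did.

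**Figure D2:**
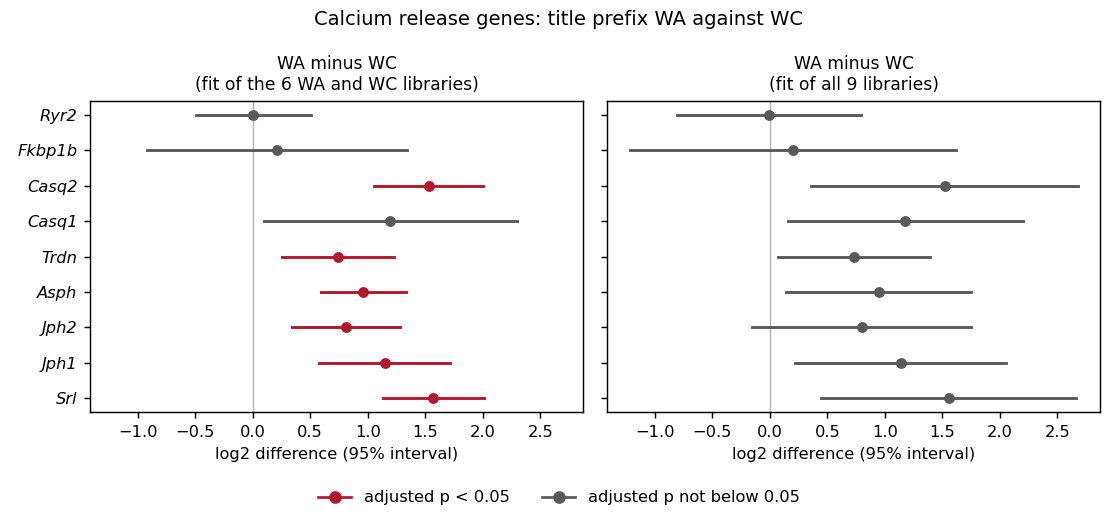
Log2 difference of each calcium release gene, WA minus WC, as the edgeR estimate (point) with its 95% interval (line), from the 6 WA and WC libraries on the left and from all 9 libraries on the right. The estimates hardly differ between the fits, but the intervals are wider on the right for every gene except Casq1. On the left 6 genes pass an adjusted p of 0.05 (red) and on the right none.

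These calls depended on which libraries set the spread. With all 9 libraries in the fit, none of the 9 genes was called, although the differences were nearly the same (Srl 1.56 ± 0.50, Casq2 1.52 ± 0.53, edgeR adjusted p = 0.224 for both). That fit called 0 of 19091 genes (0%), with 3443 (18.0%) at an unadjusted p under 0.05. DESeq2 called 505 of the 19091 genes there, Srl among them, and limma-voom called 0. Without Kmo_AngII replicate 1, the same fit called 1576 of 19742 genes, 927 of them higher. Of the 9 genes it called 4 (Casq2, Srl, Asph and Jph1, edgeR adjusted p between 0.0105 and 0.0293). In the 6-library fit, leaving out Ctrl replicate 3 or AngII replicate 2 left 3 genes called (Casq2, Asph and Srl). All genes called fell to 524 of 18913 and 459 of 18741. Without Ctrl replicate 1 there were 1020 calls among 18869 genes. Without Ctrl replicate 2, the library with atrial genes, there were 1270 among 19028. They included 4 and 5 of the 9 genes. Scaling by library size alone moved the median over all genes to -0.32, and the fit called 232 of 18111 genes and none of the 9. Under that scaling Srl was at 1.24, Casq2 at 1.17 and Ryr2 at -0.39.

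Heart muscle markers moved with the title letters. The 15 markers summed to 50171 to 61354 CPM in WA and 31276 to 37333 CPM in WC, and all 15 had a positive log2 difference in the 6-library fit (8 called higher, median 1.10). Of all genes tested in that fit, 8.06% were called higher and 5.25% lower. Markers of blood moved the other way: the 5 red cell genes, with members that share near-identical sequence, summed to 116 to 490 CPM in WA and 2944 to 7318 CPM in WC, and all 5 were called lower. The neutrophil markers summed to 8.70 to 14.3 CPM in WA and 37.2 to 180.3 CPM in WC, with 1 of 4 tested genes called lower. Of the fibroblast markers 4 of 9 were called higher, with sums of 684 to 904 CPM in WA and 515 to 756 CPM in WC, and the 8 endothelial markers all had negative differences, with none called (sums of 1494 to 1962 CPM in WA and 2135 to 2478 CPM in WC). Schwann and nerve markers summed to 8.95 to 13.6 CPM in WA and 20.6 to 23.3 CPM in WC, with 1 of 4 tested genes called lower. Of 8 tested skeletal muscle markers, 4 differences were positive and 4 negative, with 2 called higher. Nppa, the natriuretic peptide gene that led the atrial list, was 603 to 1222 CPM in WA and 48.0 to 114 CPM in WC. Fetal-program genes outside the lists moved too: Acta1, the skeletal actin gene, averaged 660.5 CPM in WA and 13.4 CPM in WC (log2 difference 5.63 ± 0.27), and Nppb 370.3 CPM in WA and 36.6 CPM in WC (3.35 ± 0.35), both called, while Myh7 was not called (0.76 ± 0.26, edgeR adjusted p = 0.0769). The part of these cell contents in the differences of the calcium release genes was not tested.

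Set against the mean log2 CPM of the 15 heart muscle markers in the same library, the 9 genes fell on both sides of 0. Casq2 and Srl stayed higher in WA, by 0.60 and 0.66 on the log2 scale, and every WA library lay above every WC library, as for 1.17% of the 18111 genes tested. That share covers genes of all kinds, so it does not set Casq2 and Srl apart from other heart muscle genes. Among the 15 markers themselves, Myoz2 and Myom1 also lay higher in WA without overlap, while Csrp3 and Actn2 overlapped. Ryr2 was lower in WA, by -0.89, with -2.45 ± 0.17 in WA and -1.56 ± 0.38 in WC (SD, n = 3 each) and no overlap. Fkbp1b was lower as well, by -0.68 without overlap, on few counts. On this scale 64.0% of the genes tested were lower in WA without overlap, so the lower values of Ryr2 and Fkbp1b do not set them apart from other genes. The other 5 genes overlapped, at 0.30 for Casq1, 0.22 for Jph1, 0.05 for Asph, -0.11 for Jph2 and -0.14 for Trdn. In each of the 4 genes without overlap between WA and WC the two-sided exact permutation p was 0.1, the smallest that 3 against 3 libraries can give, and 0.9 after adjustment over 54 such tests. In the remaining comparisons only Jph2 in AngII minus Ctrl had no overlap, 0.32 higher in AngII (two-sided exact permutation p = 0.1, adjusted 0.9). For that comparison the 9 genes ran from -0.67 for Casq1 to 0.47 for Ryr2.

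**Figure D3:**
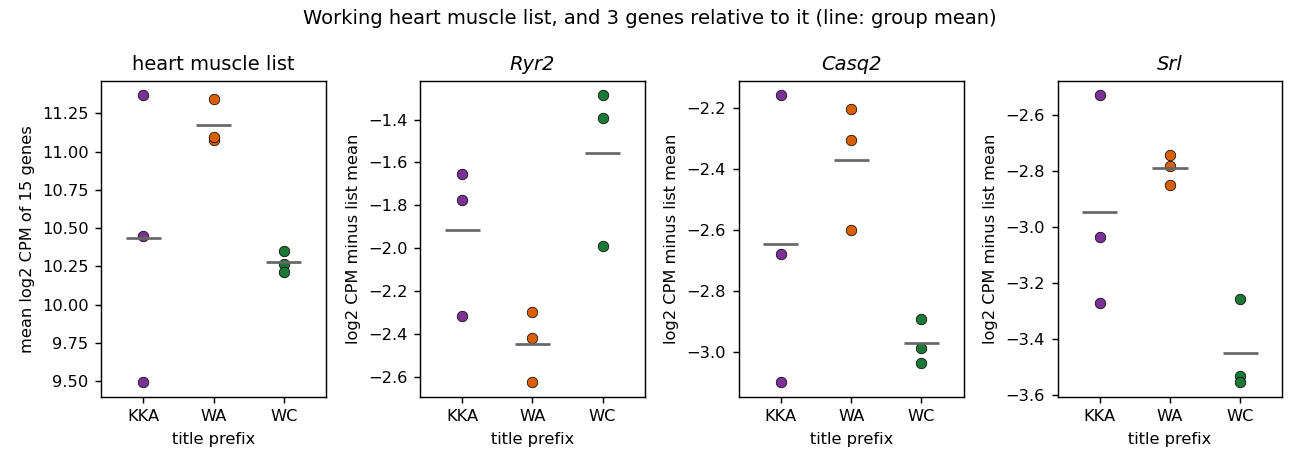
Mean log2 CPM of 15 working heart muscle genes in each library (left panel), and log2 CPM of Ryr2, Casq2 and Srl minus that mean, for libraries titled KKA, WA and WC. Lines are means of 3 libraries; the WA points lie below the WC points for Ryr2 and above them for Casq2 and Srl, and the KKA points spread over both ranges.

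Per channel transcript, the same contrast can be read without any scaling between libraries. For each 100 counts of Ryr2, Casq2 had 36.8 to 111 in KKA, 99.5 to 116 in WA and 30.8 to 48.5 in WC. Srl had 32.6 to 86.3 in KKA, 68.3 to 89.8 in WA and 20.8 to 34.3 in WC. The WA and WC ranges also lay apart for Asph, with 26.7 to 35.2 in WA and 12.6 to 21.7 in WC, for Jph2, with 32.3 to 55.1 in WA and 21.6 to 28.6 in WC, and for Jph1, with 1.46 to 2.01 in WA and 0.713 to 0.815 in WC. Of all genes tested, 11.4% were higher in WA without overlap per Ryr2 count, and these ratios were not tested. The ranges overlapped for Trdn (35.9 to 43.6 in WA, 16.3 to 40.9 in WC), Casq1 and Fkbp1b. Ryr2 relative to Atp2a2, the calcium pump that refills the store, had a log2 count ratio of -2.76 ± 0.22 in WA and -1.64 ± 0.41 in WC (SD, n = 3 each). The difference of -1.11 had no overlap (two-sided exact permutation p = 0.1, adjusted 0.847 over 24 ratio tests). The other ratios tested, Casq1 to Casq2, Jph1 to Jph2 and Fkbp1b to Fkbp1a, overlapped in all 6 comparisons, as did Ryr2 to Atp2a2 in the other 5.

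**Figure D4:**
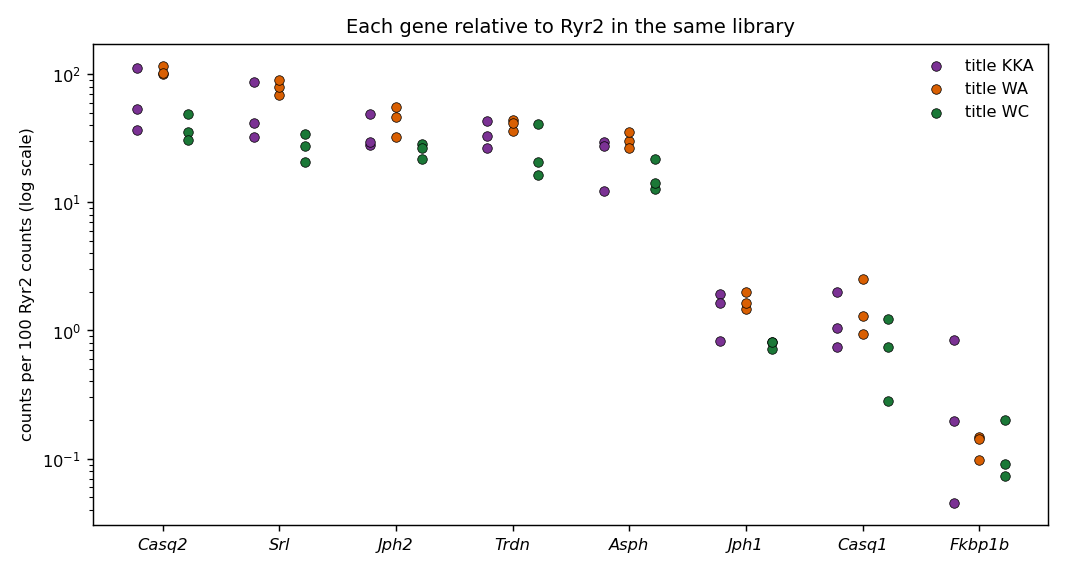
Counts of each gene per 100 Ryr2 counts in the same library (log axis), with KKA libraries on the left, WA in the middle and WC on the right for each gene. WA lies above WC without overlap for Casq2, Srl, Jph2, Asph and Jph1, and 1 KKA library reaches the WA range for Casq2 and Srl while the other 2 do not.

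Kmo_AngII minus AngII sets the Kmo condition against Ang II alone, as labelled, and also KKA titles against a mix of WC and WA titles, so label and title cannot be told apart. None of the 9 genes was called, and no gene was (0%), with 412 (2.16%) at an unadjusted p under 0.05; DESeq2 called 3 genes and limma-voom 0. The log2 differences ran from -0.15 ± 0.37 for Ryr2 to 1.13 ± 0.64 for Fkbp1b (SE), 8 of 9 positive with a median of 0.33, against 0.03 for all genes (edgeR adjusted p = 0.9998 throughout). Casq2 had 0.36 ± 0.67 and Srl 0.33 ± 0.68. These signs rested on Kmo_AngII replicate 1: without it Casq2 was -0.71, Srl -0.65, Jph2 -0.60, Asph -0.59, Jph1 -0.29 and Trdn -0.05, while Casq1 (0.22) and Fkbp1b stayed positive. Kmo itself, the kynurenine 3-monooxygenase gene that shares its symbol with the label, had 0.540 ± 0.281 CPM in Kmo_AngII, 0.890 ± 0.559 CPM in AngII and 0.924 ± 0.0669 CPM in Ctrl (SD, n = 3 each), and was not called. Against Ctrl, Kmo_AngII libraries gave 8 negative differences, from -0.60 ± 0.51 for Casq1 to -0.04 ± 0.51 for Jph2, and a positive one for Fkbp1b, 0.66 ± 0.64 (edgeR adjusted p = 0.998 for each). No gene was called there (0%), with 533 (2.79%) at an unadjusted p under 0.05; DESeq2 called 9 and limma-voom 0.

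AngII minus Ctrl addresses the response to Ang II only as far as these labels hold, since both groups mix WA and WC titles. Again 0 of 19091 genes were called (0%), with 1003 (5.25%) at an unadjusted p under 0.05, DESeq2 called 2 and limma-voom 0. Differences of the 9 genes ran from -1.04 ± 0.51 for Casq1 to 0.06 ± 0.37 for Ryr2 (edgeR adjusted p from 0.890 to 0.990). Trdn had -0.62 ± 0.33, Casq2 -0.78 ± 0.67, Srl -0.55 ± 0.68, Jph1 -0.53 ± 0.53, Asph -0.39 ± 0.46 and Jph2 -0.12 ± 0.51. The median was -0.53, against 0.02 for all genes, and the 15 heart muscle markers were all negative too, with a median of -0.40 and none called. Scaling by library size alone moved the median over all genes to 0.67. Under it 6 of the 9 genes changed sign with that shift but stayed below the median, and Ryr2 (0.73) alone lay above it. The 95% intervals were wide, from -2.28 to 0.72 for Casq2 and from -0.77 to 0.90 for Ryr2.

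**Figure D5:**
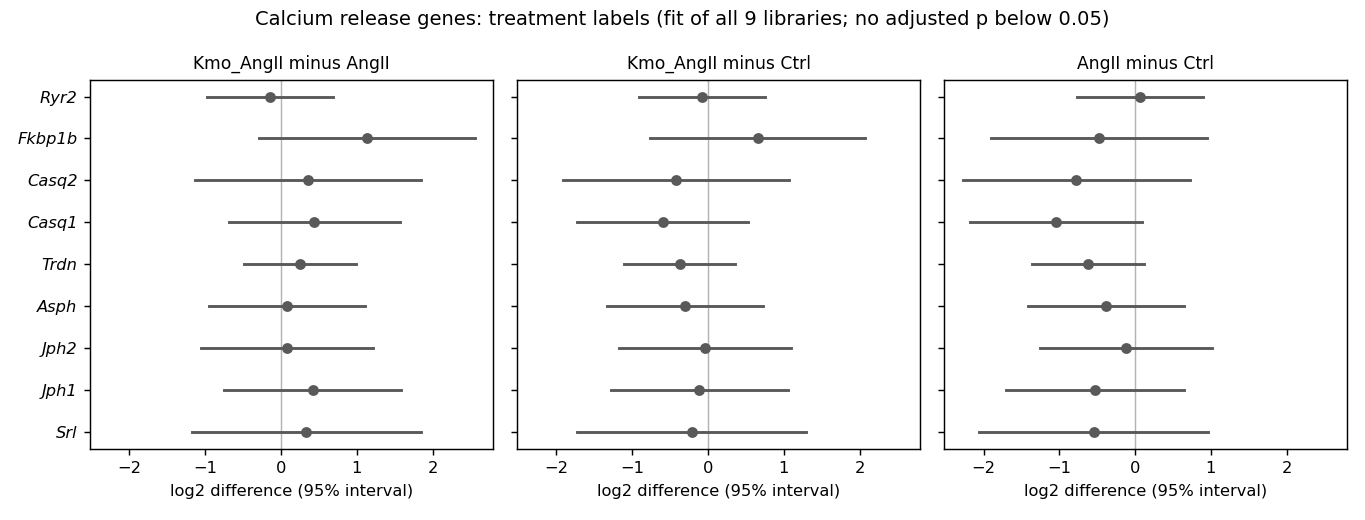
Log2 differences of the calcium release genes between treatment labels (point: edgeR estimate, line: 95% interval, fit of all 9 libraries), from left to right Kmo_AngII minus AngII, Kmo_AngII minus Ctrl and AngII minus Ctrl. Every interval includes 0.

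The AngII and Ctrl groups differ in their title letters, with 1 WA library in AngII and 2 in Ctrl, so the difference was also taken within each letter group. Among WA libraries, AngII minus Ctrl was -0.38 ± 0.61 for Ryr2, -0.47 ± 0.89 for Casq2, -0.30 ± 0.48 for Trdn and -0.11 ± 0.84 for Srl. Among WC libraries it was 0.54 ± 0.61 for Ryr2, -0.01 ± 0.87 for Casq2, -0.61 ± 0.46 for Trdn and 0.03 ± 0.84 for Srl. Casq1 was negative in both sets, at -0.75 ± 0.71 in WA and -0.70 ± 0.68 in WC. AngII within WA and Ctrl within WC are 1 library each, assumed to vary like the combinations with more libraries, so these values do not show that a difference is absent. On the same footing the difference between the letter groups was called for 4 of 21677 genes (0.0185%) and for none of the 9 (edgeR adjusted p = 0.99998).

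The KKA libraries were set against both letter groups. KKA minus WA gave 8 negative differences and a positive one for Fkbp1b (0.78 ± 0.64), from -0.65 ± 0.52 for Casq2 (edgeR adjusted p from 0.745 to 0.947), with 0 of all genes called (0%) and 1345 (7.05%) at an unadjusted p under 0.05, against 91 called by DESeq2 and 0 by limma-voom. Without Kmo_AngII replicate 1, 1709 of 19742 genes were called, 794 of them higher. Casq2 (-1.72), Srl (-1.53) and Asph (-1.19) were among those called lower, with edgeR adjusted p between 0.0122 and 0.0142. KKA minus WC gave 8 positive differences, the highest 1.01 ± 0.50 for Srl, and -0.12 ± 0.36 for Ryr2 (edgeR adjusted p from 0.995 to 0.996), with 0 genes called (0%) and 671 (3.51%) at an unadjusted p under 0.05, against 27 called by DESeq2 and 0 by limma-voom.

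Likeness between profiles was measured as the root mean square difference of centred log2 CPM over the 9 libraries, among 11239 genes that leave out the 9 themselves. Casq2 and Srl were the closest of the 36 pairs among the 9 genes, at 0.14. The outside genes nearest to Casq2 were Hibch (0.12), an enzyme of valine breakdown, Homer2 (0.12), a scaffold protein, and Acads (0.13), a fatty acid oxidation enzyme. Those nearest to Srl were Ppa2, Mdh1 and Hibch (0.15 to 0.16), all of which encode enzymes. Among the genes near Ryr2 were Rbm24 (0.14), a muscle splicing regulator, and Cyb5r2 (0.15). Jph2 was nearest to the mitochondrial genes Mrpl46, Mipep and Mrps23 (0.09 to 0.10), Asph to Gpat3, Rras2 and Lynx1 (0.08 to 0.11), and Trdn to Lsm3, Txn2 and Gng5 (0.09 to 0.13). Jph1 was nearest to Pdf, Kpna2 and Eif4g1 (0.16 to 0.18), Casq1 to Otud1, Vps25 and Phlda1 (0.29 to 0.38) and Fkbp1b to Aebp1, Anpep and Tubb4a (0.32 to 0.36).

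Genes around the release channel were read from lists in the same 6-library fit, WA against WC. Of all genes tested in it, 8.06% were called higher and 5.25% lower. A single call in a list of 10 or 11 genes is near those shares and says little about the list. Of 8 tested genes listed under store calcium uptake, not all of them parts of the pump, 3 were called higher and 1 lower. Atp2a2 averaged 2899.7 CPM in WA and 1340.2 CPM in WC, a log2 difference of 1.12 ± 0.29 (edgeR adjusted p = 0.0257), and Pln, the phospholamban gene that restrains the pump, had 0.98 ± 0.27 (0.0385). Thbs4, a matrix protein gene, had 2.82 ± 0.28 (edgeR adjusted p = 0.000982), and Atp2a3, a pump gene of non-muscle cells, fell by 0.71 ± 0.16 (0.0178). Of 10 genes of surface calcium entry and exchange, Slc8a1, the sodium-calcium exchanger, was called higher (1.41 ± 0.20, edgeR adjusted p = 0.00391) and Cacna1c, the pore of the L-type channel that triggers release, lower (-0.88 ± 0.20, 0.0174).

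Of 15 genes in a list of kinases, phosphatases and scaffolds around the channel, 6 were called higher and 3 lower, against 8.06% and 5.25% of all genes tested. Akap6, which encodes an anchor of protein kinase A at the channel, had 1.19 ± 0.21 (edgeR adjusted p = 0.00681) and Ppp1r3a, a phosphatase subunit, 0.99 ± 0.20 (0.0103). Pde4d, a cyclic AMP phosphodiesterase found at the channel, was lower by -1.82 ± 0.25 (edgeR adjusted p = 0.00296), and Phkg1, a phosphorylase kinase subunit, by -2.06 ± 0.26 (0.00233). Of 15 tested genes of other junction, T-tubule and store membrane proteins, 3 were called higher: Cav3, the muscle caveolin (1.15 ± 0.25), Cmya5 (0.98 ± 0.22) and Lrrc10 (0.66 ± 0.18). Among 11 other release channels and calmodulin-type regulators 1 was called higher, Calm3 (0.76 ± 0.19, edgeR adjusted p = 0.0251). Ryr1 and Ryr3, the other ryanodine receptors, stayed at or below 0.639 CPM in these 6 libraries, and Fkbp1a, the near relative of Fkbp1b, had 108.5 CPM in WA and 76.7 CPM in WC and was not called.

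No gene of these lists was called between treatment labels, and the gene of each list with the smallest unadjusted p is given. For Kmo_AngII minus AngII these were Cacna1h, a T-type calcium channel (1.14 ± 0.34), Ryr3 (2.78 ± 0.94), Sln, the sarcolipin gene, Ppp2r5a (-0.27 ± 0.23) and Tcap (0.36 ± 0.35), all with an edgeR adjusted p of 0.9998. Ryr3 was 0.657, 0.519 and 5.86 CPM in Kmo_AngII and at most 0.520 CPM in AngII, and Sln was 0.179, 0.488 and 288.9 CPM in Kmo_AngII and at most 0.164 CPM in AngII. In both genes the high library was Kmo_AngII replicate 3, one of those with atrial genes. For AngII minus Ctrl they were Pkp2 (-0.63 ± 0.23), Orai1 (-0.55 ± 0.26), Ppp2ca (-0.70 ± 0.34), Cacna2d1 (-0.64 ± 0.32) and Itpr2 (0.37 ± 0.19), at an edgeR adjusted p of 0.890. For Kmo_AngII minus Ctrl they were Ryr3, Prkar2a, Pkp2, Sln and Cacna1h. Josd2, a deubiquitinase gene, had 49.6, 56.4 and 50.1 CPM on average in Kmo_AngII, AngII and Ctrl, and was called in no comparison.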

How the data were processed

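Gene counts of 9 mouse heart libraries were used as deposited by the authors, 1 table of raw counts per gene. The build mm8 and the tools HISAT2 2.0, StringTie 1.3.0 and Bowtie 0.12.2 are listed, per the submitters' processing notes. How reads were counted, with which annotation and on which strand, is not given in the sources used here. Ensembl IDs were paired with symbols and exon lengths through GENCODE (55141 of 55401), and sequences came from RefSeq GRCm38.p6. Tests used edgeR 4.0.16 (quasi-likelihood, robust, TMM, filterByExpr with a minimum count of 10, Benjamini-Hochberg over all genes, threshold 0.05) in R 4.3.3, with limma 3.58.1 and DESeq2 1.42.0 as alternatives. Likeness and the spread of log2 CPM used a prior count of 2. Ratios, the mean of the heart muscle list and values relative to it used log2 CPM without that prior count. All were computed from the deposited counts. Ratios were tested by two-sided exact permutation (SciPy 1.17.1). Fits were tested on simulated data. No gene row was left out of the totals, and no column was unused. The 6-library fit holds WA and WC only; fits of treatment labels and title letters hold all 9 libraries. The same libraries serve several comparisons, which are therefore not independent. The 9 genes, the lists and the rules were chosen with earlier results of these data known. Genes outside the 9 were named by rule: of each pathway list up to 4 called genes by p or else the smallest p, of each marker list the highest gene, 5 index genes, and the 3 nearest profiles of each gene, of which 1 is not reported here. Alternatives changed the scaling, filter, test, libraries and covariates.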

Additional observations from a re-analysis of the deposited data

How the results depend on the processing

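Of the counts and other summary results, 199 values under alternative settings were the same as reported and 43 moved; of the single-gene results, 452 were the same, 18 lost the threshold, 1 gained it and 42 changed sign. DESeq2 called 2 genes for AngII minus Ctrl, 3 for Kmo_AngII minus AngII, 9 for Kmo_AngII minus Ctrl, 505 for WA minus WC (1 of the 9 genes), 91 for KKA minus WA and 27 for KKA minus WC, all of 19091 genes in fits of 9 libraries. In the 6-library fit DESeq2 called 3453 of 18111 genes and 7 of the 9, Casq1 among them, and limma-voom 2253 and 6 of the 9. Scaling by library size alone called 11 genes for WA minus WC, 1 for KKA minus WA and 7 for KKA minus WC, and 232 with 0 of the 9 genes in the 6-library fit. No low-count filter gave 5, 1 and 4 genes for WA minus WC, KKA minus WA and KKA minus WC. Fitting only the groups compared gave 1 gene for Kmo_AngII minus Ctrl, and leaving out both libraries with atrial genes, chosen after seeing the data, gave 2 for WA minus WC. Leaving out 1 library gave 0 to 1 genes for each treatment comparison, 0 to 1576 for WA minus WC (0 to 4 of the 9 genes), 0 to 1709 for KKA minus WA (0 to 3), 0 to 7 for KKA minus WC and 459 to 2980 in the 6-library fit (3 to 6). Genes tested then numbered 19697 to 19896 in fits from all 9 libraries and 18692 to 19028 in the 6-library fit.

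Signs changed as follows, and the cause was not tested. For AngII minus Ctrl, library size alone gave Trdn 0.053, Jph1 0.13, Jph2 0.54, Asph 0.28, Srl 0.13 and Fkbp1b 0.14, and the title letters as a covariate gave Jph2 0.19. For Kmo_AngII minus AngII, Ryr2 was 0.16 without both atrial libraries, library size alone gave Trdn -0.033, Jph2 -0.15 and Asph -0.17, and limma-voom gave Jph2 -0.15 and Asph -0.047. In the 6-library fit Ryr2 was -0.0011 with DESeq2 size factors, -0.39 with library size, -0.011 with no filter, -0.011 with at least 1 CPM and -0.0012 with DESeq2, and Fkbp1b -0.041 with library size. Asph relative to the median of the heart muscle list was -0.053. Without 1 library, AngII minus Ctrl ranged from -0.081 to 0.20 for Ryr2 and -0.42 to 0.26 for Jph2. Kmo_AngII minus AngII ranged from -0.42 to 0.16 for Ryr2, -0.71 to 0.87 for Casq2, -0.046 to 0.54 for Trdn, -0.29 to 0.68 for Jph1, -0.60 to 0.45 for Jph2, -0.59 to 0.48 for Asph and -0.65 to 1.003 for Srl. In the 6-library fit the ranges were -0.15 to 0.13 for Ryr2 and -0.0048 to 0.49 for Fkbp1b. Log2 ratios ranged from -0.91 to 0.023 (AngII minus Ctrl) and -0.84 to 0.090 (WA minus WC) for Casq1 to Casq2, and from -0.45 to 0.0058 (AngII minus Ctrl) for Fkbp1b to Fkbp1a.

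Fkbp1b, at 18 to 89 counts a library, was not tested under the filter of 1 CPM, and its depth limits its precision. No paired analysis was possible because replicate numbers were given in the order of the samples and pair none of them.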
